A study of Homo sapiens with 8 samples.

Results

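H19, MEG8 and KCNQ1OT1 are long noncoding RNAs (lncRNAs) from imprinted gene clusters, and they make up 3 of the 15469 loci with values in this study. They were chosen by name, as the loci whose Ensembl gene IDs map to these symbols, and all 3 had a value in all 8 libraries. The study measured lncRNAs in LM3 and HepG2, a pair of human cell lines that the labels describe as hepatocellular carcinoma. Cells received JQ1, a small-molecule bromodomain inhibitor, or its DMSO vehicle, and the question is which lncRNAs respond. There were 4 groups of 2 libraries each, namely LM3 with JQ1, LM3 with vehicle, HepG2 with JQ1 and HepG2 with vehicle. The sources used here give neither dose nor duration of treatment.

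An imprinted gene is transcribed mainly from the copy inherited from 1 parent. H19 is made from the maternal chromosome 11, where it shares enhancers with the paternally expressed growth factor gene IGF2, and it is abundant in fetal liver and low in adult liver. KCNQ1OT1 is made from the paternal chromosome 11, antisense to the potassium channel gene KCNQ1, and silences neighbouring genes in cis. MEG8 belongs to the DLK1-DIO3 cluster on chromosome 14, whose maternal copy gives rise to noncoding RNAs including many small nucleolar RNAs and microRNAs. The values used here do not distinguish the parental copies.

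On GRCh38, H19 (ENSG00000130600) lies at chr11:1995176-2001470 on the minus strand. KCNQ1OT1 (ENSG00000269821) lies at chr11:2608328-2699994 on the same strand, 607 kb away, within KCNQ1. MEG8 (ENSG00000225746) lies at chr14:100894770-101038859 on the plus strand. The 3 differ in form. In GENCODE release 29, KCNQ1OT1 is a single unspliced transcript of 91667 bases, the longest of 12 H19 transcripts is 2348 bases with at most 5 exons in any of them, and MEG8 has 25 transcripts of 66 to 3757 bases. None of the 3 overlapped another locus with values on the same strand by 0.5 or more of the shorter.

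H19 carries the hairpin of miR-675, and 14 microRNA genes and 46 small nucleolar RNA genes lie inside MEG8 on its strand, while KCNQ1OT1 holds neither. The mature microRNAs (RefSeq, GRCh38.p14) are shown because they are what H19 and MEG8 can be processed into. They were not measured here. Capitals mark the seed, bases 2 to 8, which pairs with targets. Of the 25 mature sequences listed inside MEG8, 22 seeds are distinct. The seed of miR-379-3p is shared with miR-411-3p, and the pair of miR-329 genes give the same mature sequences.
hsa-miR-675-5p (chr11:1996800-1996822, minus strand, in H19): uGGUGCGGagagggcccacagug
hsa-miR-675-3p (chr11:1996768-1996787, minus strand, in H19): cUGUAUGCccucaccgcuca
hsa-miR-379-3p (chr14:101022109-101022130, plus strand, in MEG8): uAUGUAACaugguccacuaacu
hsa-miR-411-3p (chr14:101023375-101023396, plus strand, in MEG8): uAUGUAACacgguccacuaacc
hsa-miR-329-3p (chr14:101026834-101026855, plus strand, in MEG8): aACACACCugguuaaccucuuu

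The promoter windows at hand included H19 but neither MEG8 nor KCNQ1OT1, so the H19 window alone is shown. Capitals mark the 50 bases from the RefSeq start site onward, after 250 bases upstream. The H19 locus given above reaches 2001470, so this start site and most of the upstream bases lie within it. The window therefore describes the RefSeq start site and not the outer end of that locus.
H19 promoter (chr11:2001217-2001516, minus strand, GRCh38.p14): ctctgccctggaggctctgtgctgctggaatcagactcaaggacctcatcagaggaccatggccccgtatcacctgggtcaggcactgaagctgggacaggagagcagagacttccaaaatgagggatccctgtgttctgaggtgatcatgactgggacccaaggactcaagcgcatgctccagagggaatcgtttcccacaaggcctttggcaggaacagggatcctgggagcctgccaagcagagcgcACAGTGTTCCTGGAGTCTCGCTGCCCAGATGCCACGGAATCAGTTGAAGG
The window is 57.7% G and C, close to the median of 58.7% over 35116 promoter windows, and holds 6 CpG dinucleotides against a median of 14. The E-box CACGTG, which reads the same on both strands and is bound by MYC and related factors, does not occur in it. It occurs in 7.26% of all windows.

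Values are FPKM, a fragment count scaled to transcript length and to library total, as deposited in 1 table per line. Summed over all loci they came to between 34066 and 35742 in the LM3 libraries and between 29369 and 32765 in the HepG2 libraries. The number of fragments behind each value is unknown. Pearson's r between replicates across loci, on log2(FPKM + 0.5), was between 0.975 and 0.983 in the 4 groups. No label says that replicates came from separate cultures, so p-values reflect the variation among these libraries alone, and that variation may be technical. Of 14 lncRNAs listed as hepatocyte markers, 9 had values. HULC and CPS1-IT1 had a mean of at least 0.5 FPKM in LM3, where HNF4A-AS1 was at 0 in all 4 libraries, and HULC, CPS1-IT1 and LINC01485 in HepG2. ALB, AFP, APOA1 and TTR are coding genes and were not analysed here. Of 11 lncRNAs listed for blood, mesenchymal or neural cells, 9 had values and 2 reached a mean of 0.5 FPKM in each line, LINC00926 and FENDRR.

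H19 was near the top of both lines. It was at 348 and 310 FPKM in the LM3 JQ1 libraries and at 310 and 347 FPKM in the LM3 vehicle libraries. In HepG2 it was at 2234 and 2101 FPKM with JQ1 and at 2038 and 2249 FPKM with vehicle. JQ1 and vehicle libraries overlapped in each line, and all LM3 libraries lay below all HepG2 libraries. Within its library, H19 ranked between 13 and 17 of 15469 loci in LM3 and first or second in HepG2. It held between 0.891% and 1.02% of the summed FPKM of an LM3 library and between 6.41% and 7.66% in HepG2. Averaged over 4 libraries, it was the twelfth locus of LM3 and the top locus of HepG2, ahead of a mitochondrial locus at 1922 FPKM and of MALAT1, an RNA of nuclear speckles, at 1703 FPKM. The tables may have been normalized separately, so the lines are set side by side with no test, and ranks and shares do not depend on a library's scale.

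**Figure D1:**
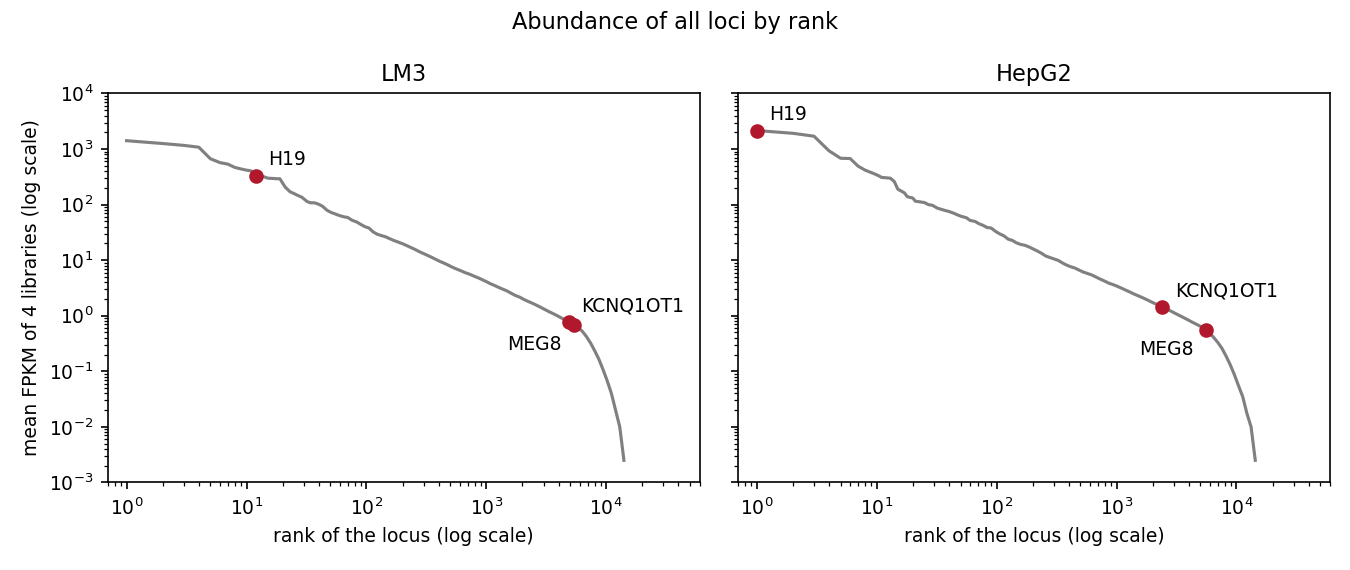
Mean FPKM over the 4 libraries of a line against the rank of the locus, both on log scales, for LM3 (left) and HepG2 (right), with all loci as the grey line. H19 sits at rank 12 in LM3 and at rank 1 in HepG2, and KCNQ1OT1 and MEG8 sit at ranks 4884 and 5409 in LM3 and at ranks 2409 and 5564 in HepG2.

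KCNQ1OT1 was far lower per length than H19. It was at 0.78 and 0.69 FPKM in LM3 with JQ1 and at 0.80 and 0.81 FPKM with vehicle. In HepG2 it was at 1.56 and 1.60 FPKM with JQ1 and at 1.32 and 1.29 FPKM with vehicle. LM3 libraries thus lay below HepG2 libraries throughout, with means of 0.77 and 1.44 FPKM. The ratio of H19 to KCNQ1OT1 within a library was between 388 and 449 in LM3 and between 1313 and 1743 in HepG2.

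MEG8 was the lowest of the 3 in HepG2. In LM3 it was at 0.44 and 0.53 FPKM with JQ1 and at 1.05 and 0.72 FPKM with vehicle. In HepG2 it was at 0.31 and 0.39 FPKM with JQ1 and at 0.93 and 0.59 FPKM with vehicle. Both JQ1 libraries were below both vehicle libraries in each line, and the lines overlapped. In LM3 cells with vehicle MEG8 and KCNQ1OT1 also overlapped, so their order there does not exceed the spread. MEG8 was below KCNQ1OT1 in all 4 HepG2 libraries and in both LM3 JQ1 libraries.

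**Figure D2:**
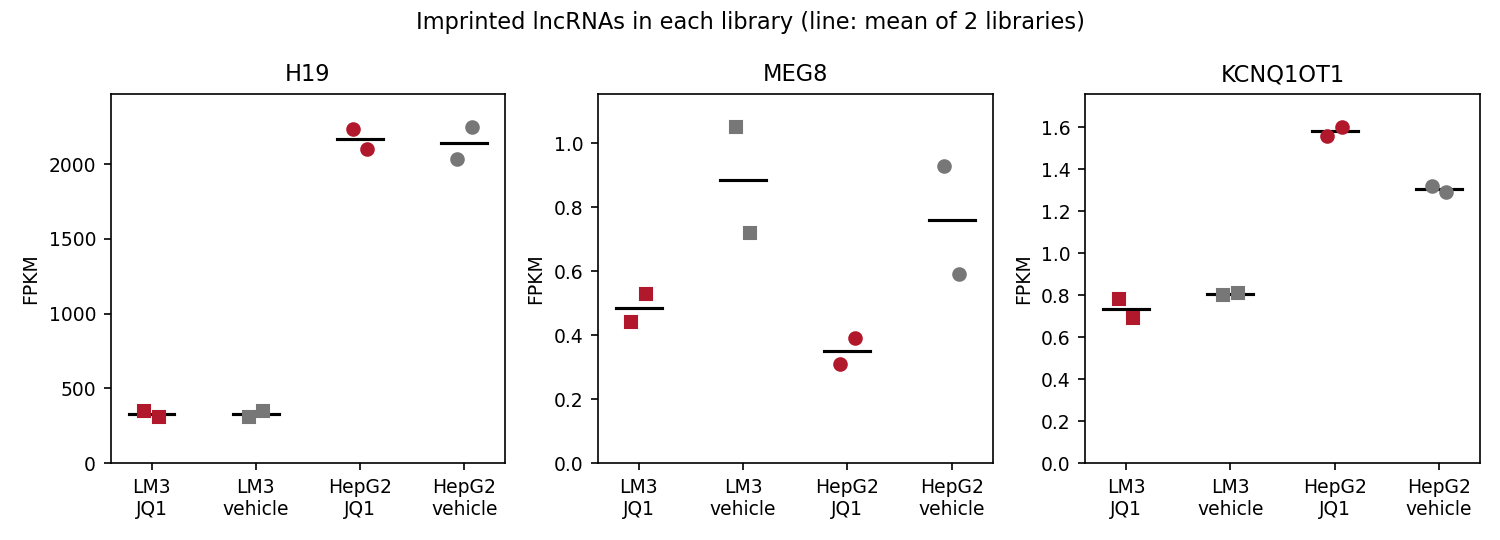
FPKM of H19, MEG8 and KCNQ1OT1 in each of the 8 libraries (squares LM3, circles HepG2, red JQ1, grey vehicle, black line the mean of 2 libraries), each panel with its own axis from 0. H19 is at 348 FPKM or less in LM3 and at 2038 FPKM or more in HepG2, and the MEG8 values with JQ1 lie below those with vehicle in each line.

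JQ1 was compared with vehicle within each line by limma on log2(FPKM + 0.5) over all loci whose mean in the line reached 0.5 FPKM, with Benjamini-Hochberg adjustment and a threshold of 0.05. None of the 3 passed in either line. In LM3, 23.3% of 6474 loci were called, and in HepG2 25.1% of 5906. A fold change on this scale understates the change of low loci. LM3 had 513 loci higher and 998 lower with JQ1, or 700 and 770 with each library centred on its median. HepG2 had 640 higher and 840 lower, or 809 and 786 when centred.

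H19 did not pass the test in either line, and its 95% intervals included 0 and changes in both directions. In LM3 it averaged 329 ± 27.1 FPKM with JQ1 and 329 ± 26.0 FPKM with vehicle (mean ± SD, n = 2 each, as for all such values). The log2 fold change was 0.00084 (SE 0.11, limma adjusted p = 0.995), with a 95% interval from -0.28 to 0.28, or from 0.823-fold to 1.22-fold. In HepG2 it averaged 2168 ± 94.1 FPKM with JQ1 and 2143 ± 149 FPKM with vehicle. The log2 fold change was 0.017 (SE 0.093, limma adjusted p = 0.906), with an interval from -0.23 to 0.26, or from 0.854-fold to 1.20-fold. The sign of such small values turned with the setting, from -0.24 after quantile normalization to 0.085 without JQ1 replicate 2 in LM3, and none of these was called.

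MEG8 was lower with JQ1 in both lines, short of the threshold in each. In LM3 it averaged 0.485 ± 0.0636 FPKM with JQ1 and 0.885 ± 0.233 FPKM with vehicle, a ratio of 0.548. Its log2 fold change there was -0.48 (SE 0.17, 95% interval -0.93 to -0.039, limma adjusted p = 0.106). In HepG2 the averages were 0.350 ± 0.0566 FPKM with JQ1 and 0.760 ± 0.240 FPKM with vehicle, a ratio of 0.461. The log2 fold change was -0.56 (SE 0.17, 95% interval -1.01 to -0.099, limma adjusted p = 0.0825). The unadjusted p was 0.0385 in LM3, where 40.3% of loci tested were under 0.05, and 0.0267 in HepG2, where 40.2% were. Groups with JQ1 wholly below vehicle were found for 39.7% of loci in LM3, 33.9% in HepG2 and 24.2% in both, so that this feature is common in these tables. MEG8 stayed negative and uncalled in each line under every setting that gave it a value, and its value spread most among the vehicle libraries.

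Averaged over both lines in 1 fit of all 8 libraries, a comparison added after the values had been seen, MEG8 fell by 0.52 on the log2 scale (SE 0.13, 95% interval -0.82 to -0.21, limma adjusted p = 0.0172). In that fit 43% of 5035 loci were called, with 19.4% higher and 23.6% lower. Median centring of the libraries gave 1219 higher and 1040 lower, against 975 and 1189 as reported, so the balance turned. Before adjustment, 50.9% were under 0.05. The call was lost without LM3 vehicle replicate 1 (adjusted p = 0.0529) and without HepG2 JQ1 replicate 1 (adjusted p = 0.0584). H19 (0.0091, adjusted p = 0.931) and KCNQ1OT1 (0.062, adjusted p = 0.406) did not pass. Another imprinted lncRNA, HYMAI, was called higher in this fit, as given below. In RNA from whole cultures, fewer cells expressing an RNA and less RNA per cell cannot be told apart. The summed FPKM of the 9 hepatocyte lncRNAs was 1.17 to 1.33 with JQ1 and 2.18 to 2.49 with vehicle in LM3, and 2.76 to 2.83 with JQ1 and 9.45 to 9.66 with vehicle in HepG2. Most of that gap was CPS1-IT1, at 0.41 and 0.26 FPKM with JQ1 and 1.34 and 1.41 with vehicle in LM3, and at 1.33 and 1.22 with JQ1 and 6.84 and 6.79 with vehicle in HepG2. The list did not move as a class: HULC overlapped between treatments in both lines, and LINC01554 was higher with JQ1 in both. The sum of the 9 lncRNAs listed for other cell types was 2.75 to 2.99 with JQ1 and 5.16 to 6.02 with vehicle in LM3, and 4.19 to 4.34 with JQ1 and 9.99 to 10.9 with vehicle in HepG2. Here most of the gap was FENDRR, at 1.02 and 1.05 FPKM with JQ1 and 3.35 and 3.44 with vehicle in LM3, and at 2.71 and 2.88 with JQ1 and 8.29 and 9.14 with vehicle in HepG2. LINC00926 overlapped between treatments in LM3 and shared a value of 0.81 FPKM between them in HepG2. The part of either list in the MEG8 values was not tested.

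KCNQ1OT1 took opposite signs in the lines. In LM3 it averaged 0.735 ± 0.0636 FPKM with JQ1 and 0.805 ± 0.0071 FPKM with vehicle. The log2 fold change was -0.080 (SE 0.11, 95% interval -0.37 to 0.21, limma adjusted p = 0.618), and it was 0.0029 with each library centred on its median. It was -0.13 without LM3 JQ1 replicate 1 and -0.028 without LM3 JQ1 replicate 2. In HepG2 it averaged 1.58 ± 0.0283 FPKM with JQ1 and 1.31 ± 0.0212 FPKM with vehicle, a ratio of 1.21. The log2 fold change was 0.20 (SE 0.086, 95% interval -0.022 to 0.43, limma adjusted p = 0.153). Neither passed. JQ1 libraries lay wholly below vehicle in LM3, as for 39.7% of loci there, and wholly above in HepG2, as for 32.4% of loci there (27% in LM3). Opposite directions of this kind were found for 3.61% of 5035 loci, and for 2.56% with JQ1 below in LM3 and above in HepG2.

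The response of LM3 minus that of HepG2 was tested in 1 limma fit over the 8 libraries, in which 0.218% of 5035 loci were called (0.0199% positive and 0.199% negative) and 12% had an unadjusted p under 0.05. For KCNQ1OT1 it was -0.29 (SE 0.11, 95% interval -0.55 to -0.020, unadjusted p = 0.0387, adjusted p = 0.388). It was -0.017 for H19 (95% interval -0.36 to 0.33, adjusted p = 0.970) and 0.073 for MEG8 (95% interval -0.54 to 0.68, adjusted p = 0.922). The MEG8 interval leaves room for unequal responses as large as the responses themselves.

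**Figure D3:**
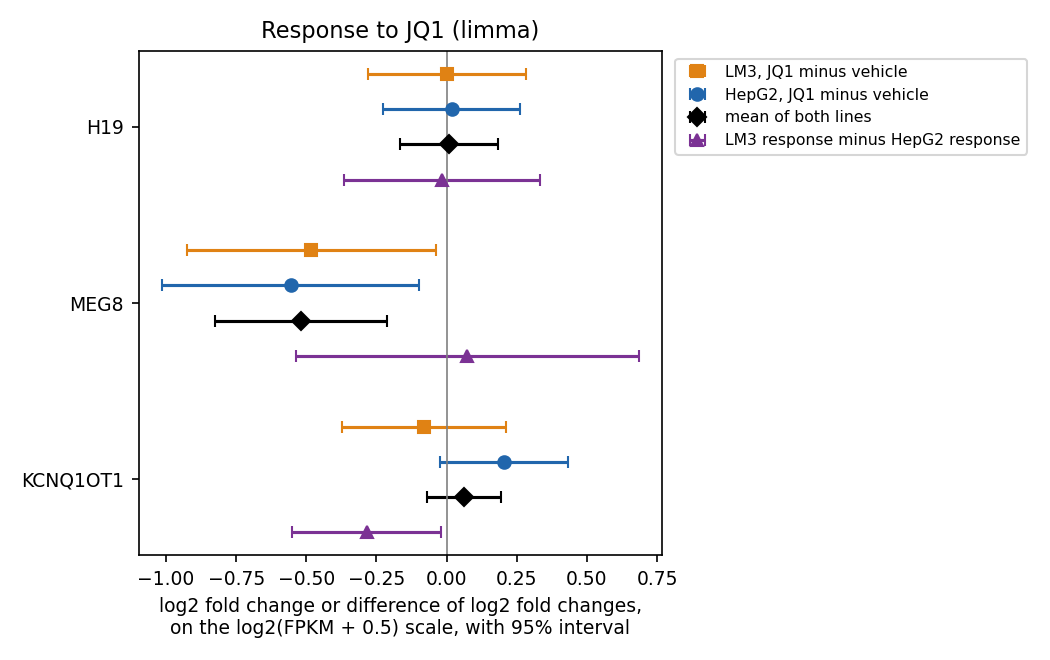
Log2 fold change, JQ1 minus vehicle, with its 95% interval (limma) for LM3 (orange squares), HepG2 (blue circles) and the mean of both lines (black diamonds), and the LM3 response minus the HepG2 response (purple triangles). The H19 points lie within 0.02 of 0, the MEG8 responses lie between -0.48 and -0.56, and KCNQ1OT1 is at -0.080 in LM3 and 0.20 in HepG2.

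Other imprinted lncRNAs were then examined from a list of 34 symbols, of which 20 were in the tables and 16 had values. In each line 3 passed the filter on low values. In LM3 DIO3OS fell and the other two, SNHG14 and HYMAI, were not called, beside 23.3% of all loci called there. In HepG2 SNHG14, HYMAI and PEG13 were tested and 0 were called by limma, with 1 (HYMAI) at an unadjusted p under 0.05, beside 25.1% of all loci called and 40.2% under 0.05 unadjusted. With 3 members tested in each line, such counts are too few to be compared with the shares over all loci. Within a line the tested members had a median log2 fold change of -0.15 in LM3, against -0.084 over all loci tested, and 0.043 in HepG2, against -0.0056. The 12 members under the filter in both lines reached at most 0.38 FPKM in any library. They include LINC02228, for which no imprinting is known.

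DIO3OS, an antisense RNA at the far end of the DLK1-DIO3 cluster from DLK1 (chr14:101552221-101560431, minus strand, 513 kb from MEG8), was at 2.03 and 1.75 FPKM with JQ1 and at 4.10 and 4.75 FPKM with vehicle in LM3. Its log2 fold change in LM3 was -1.04 (SE 0.12, limma adjusted p = 0.0117), a call lost without any single LM3 library (adjusted p from 0.0653 to 0.103), when no locus at all was called. In HepG2 it was at 0.27 and 0.34 FPKM with JQ1 and at 0.41 and 0.53 FPKM with vehicle. That is under the filter, and without the filter the log2 fold change was -0.27 (adjusted p = 0.303). MEG3, the best known noncoding RNA of the same cluster, lies 33.7 kb before MEG8. It was at 0.38 and 0.20 FPKM with JQ1 and at 0.20 and 0.21 FPKM with vehicle in LM3. In HepG2 MEG3 was at 0.11 and 0.08 FPKM with JQ1 and at 0.13 FPKM in both vehicle libraries. Below the filter in both lines, MEG3 was under MEG8 in every library.

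SNHG14, the long transcript of the Prader-Willi region on chromosome 15 that hosts small nucleolar RNAs, was the most abundant of the list. It was at 25.7 and 23.3 FPKM with JQ1 and at 28.0 and 26.6 FPKM with vehicle in LM3 (log2 fold change -0.15, limma adjusted p = 0.290). In HepG2 SNHG14 was at 19.6 and 19.5 FPKM with JQ1 and at 21.0 and 22.1 FPKM with vehicle (log2 fold change -0.13, limma adjusted p = 0.222). Its locus overlaps another with values on the same strand, so its level is uncertain. HYMAI, from the imprinted PLAGL1 locus on chromosome 6, was at 2.84 and 2.13 FPKM with JQ1 and at 1.97 and 1.94 FPKM with vehicle in LM3 (0.27, limma adjusted p = 0.228). That value was 0.099 without LM3 JQ1 replicate 1 and 0.44 without LM3 JQ1 replicate 2, and neither was called. In HepG2 HYMAI was at 1.91 and 1.98 FPKM with JQ1 and at 1.58 and 1.44 FPKM with vehicle (0.28, limma adjusted p = 0.0855). It was called there with libraries centred on their median (adjusted p = 0.0413) and after quantile normalization (adjusted p = 0.0411). In the fit averaged over both lines, added after the values had been seen, HYMAI was called higher (0.28, limma adjusted p = 0.0394). In that fit 19.4% of 5035 loci were called higher, and SNHG14 was not called (-0.14, limma adjusted p = 0.0772). PEG13, an intronic RNA of TRAPPC9, was at 0.19 and 0.17 FPKM with JQ1 and at 0.19 and 0.26 FPKM with vehicle in LM3. In HepG2 PEG13 was at 0.80 and 1.02 FPKM with JQ1 and at 0.82 and 0.91 FPKM with vehicle (0.043, limma adjusted p = 0.818). Like H19 and KCNQ1OT1, it was lower in every LM3 library than in every HepG2 library, whereas DIO3OS, MEG3 and SNHG14 were higher. HYMAI and MEG8 overlapped between the lines. The share of all loci that separate the lines in this way was not counted, so no trait of imprinted lncRNAs is read from it.

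**Figure D4:**
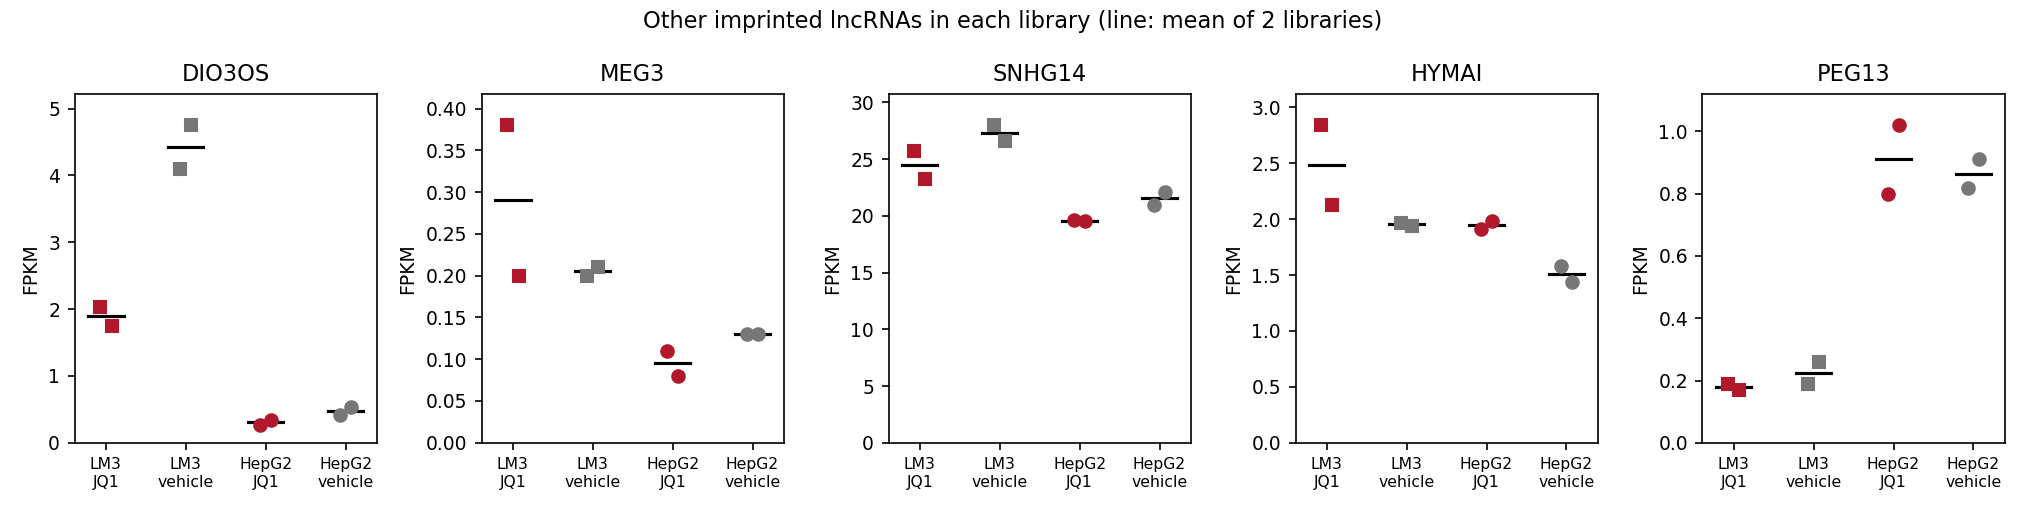
FPKM of DIO3OS, MEG3, SNHG14, HYMAI and PEG13 in each of the 8 libraries (squares LM3, circles HepG2, red JQ1, grey vehicle, black line the mean of 2 libraries), each panel with its own axis from 0. DIO3OS in LM3 is at 2.03 FPKM or less with JQ1 and at 4.10 FPKM or more with vehicle.

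Of 26 loci with values within 500 kb of H19, MEG8 or KCNQ1OT1, 8 passed the filter in each line. In LM3 2 were called, both lower with JQ1, against 15.4% of all loci tested called lower and 7.92% higher. In HepG2 2 were lower and 1 was higher, against 14.2% lower and 10.8% higher overall. The LM3 calls were lost without any single LM3 library, and the HepG2 calls without either HepG2 JQ1 library, when no locus of the line was called. Beyond MEG8, LXLOC_017545, a locus known by its ID in the tables alone (chr14:101463016-101477179, minus strand), lies 424 kb away and 75.0 kb short of DIO3OS. It was at 0.90 and 0.95 FPKM with JQ1 and at 4.83 and 4.85 FPKM with vehicle in LM3 (log2 fold change -1.91, SE 0.085, limma adjusted p = 0.00533). In HepG2 LXLOC_017545 was at 0.09 and 0.07 FPKM with JQ1 and at 0.20 and 0.25 FPKM with vehicle, too low to be tested. On the other side of MEG8, 325 kb away and antisense to BEGAIN, LXLOC_016535 was at 0.42 and 0.49 FPKM with JQ1 and at 0.77 and 0.85 FPKM with vehicle in HepG2 (-0.46, limma adjusted p = 0.0413). In LM3 LXLOC_016535 was at 0.08 and 0.07 FPKM with JQ1 and at 0.33 and 0.32 FPKM with vehicle, under the filter.

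ENSG00000285644, 358 kb from KCNQ1OT1 and antisense to CARS, a cysteinyl-tRNA synthetase gene, was lower with JQ1 in both lines. It was at 0.43 and 0.50 FPKM with JQ1 and at 1.17 and 1.20 FPKM with vehicle in LM3 (-0.81, limma adjusted p = 0.0151). In HepG2 ENSG00000285644 was at 0.53 and 0.50 FPKM with JQ1 and at 0.88 and 0.89 FPKM with vehicle (-0.45, limma adjusted p = 0.0313). LXLOC_009511, 465 kb from H19, was at 1.00 and 1.04 FPKM with JQ1 and at 0.66 and 0.68 FPKM with vehicle in HepG2 (0.38, limma adjusted p = 0.0417). In LM3 LXLOC_009511 was at 0.82 and 0.73 FPKM with JQ1 and at 0.51 and 0.60 FPKM with vehicle (0.27, limma adjusted p = 0.175). Much closer to H19, 5256 bases past its 3′ end, MRPL23-AS1 was at 0.03 and 0.05 FPKM with JQ1 and at 0.14 and 0.25 FPKM with vehicle in LM3. In HepG2 MRPL23-AS1 was at 0.15 and 0.13 FPKM with JQ1 and at 0.43 and 0.46 FPKM with vehicle, under the filter like the LM3 values. LINC01219, nearer still on the same side at 1506 bases, was also under the filter and overlapped between treatments in both lines. It was at 0 and 0 FPKM with JQ1 and at 0 and 0.06 FPKM with vehicle in LM3. In HepG2 LINC01219 was at 0 and 0.08 FPKM with JQ1 and at 0.03 FPKM in both vehicle libraries.

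**Figure D5:**
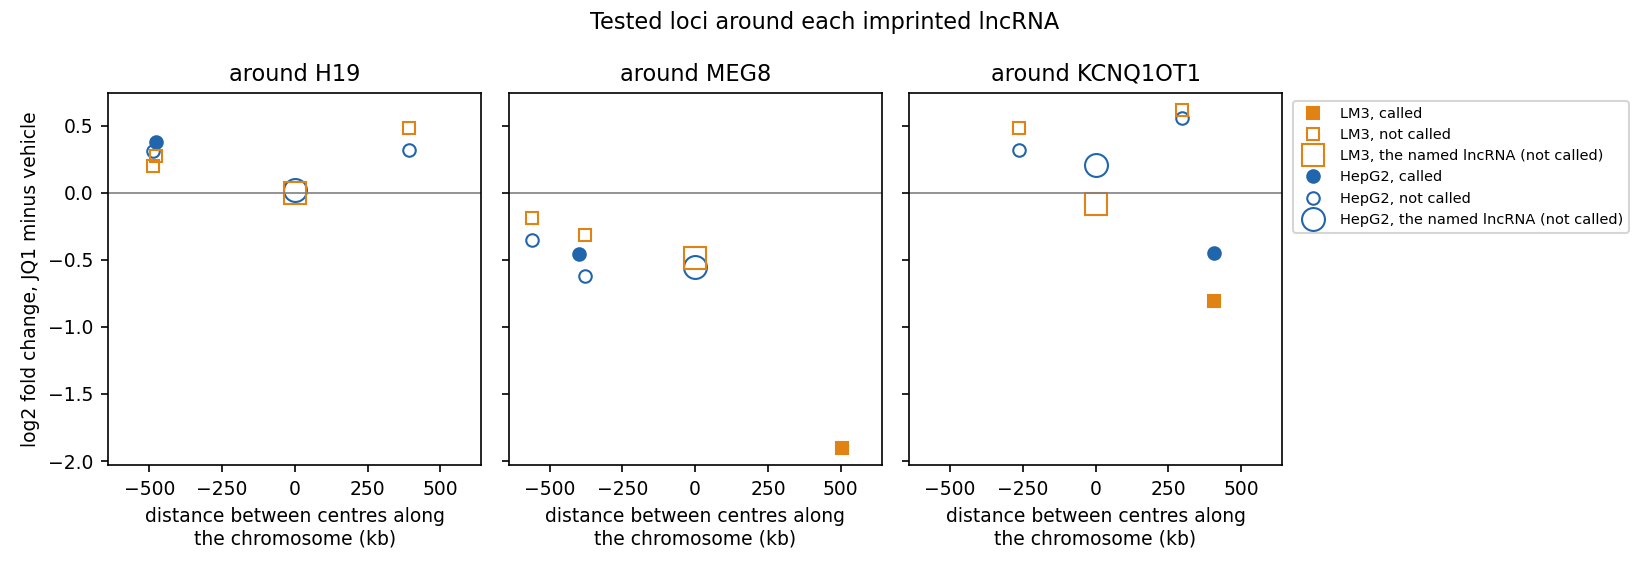
Log2 fold change, JQ1 minus vehicle, of the tested loci around each lncRNA, against the distance between centres in kb along the chromosome, for LM3 (orange squares) and HepG2 (blue circles); filled symbols passed an adjusted p of 0.05, and large open symbols at 0 are the named lncRNA. LXLOC_017545 is the lowest point, at -1.91 in LM3.

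The loci most like each lncRNA were sought among 839 others with a symbol and a mean of at least 0.5 FPKM in both tables, by Pearson's r of log2(FPKM + 0.5) over the 8 libraries. These libraries share 2 lines and 2 treatments, so r is a description. A locus picked for its high r resembles the lncRNA over the 8 libraries because of that choice, and its response to JQ1 can still differ. Closest to H19 were PURPL (r = 0.994), FAM106A (0.991) and HSD17B1-AS1 (0.990), each higher in every HepG2 library than in any LM3 library. FAM106A, for example, was at 2.72 and 2.65 FPKM in LM3 with JQ1, 1.98 and 2.24 with vehicle, and at 8.23 and 8.39 FPKM in HepG2 with JQ1, 8.44 and 8.88 with vehicle. Closest to KCNQ1OT1 were IGFL2-AS1 (0.986), TTN-AS1 (0.975) and SLX1A-SULT1A3 (0.975). IGFL2-AS1 was at 10.3 and 11.3 FPKM with JQ1 and at 10.5 and 10.1 FPKM with vehicle in LM3, and at 57.4 and 54.6 FPKM with JQ1 and 38.2 and 34.2 FPKM with vehicle in HepG2. For MEG8 they were MID1IP1-AS1 (0.945), EMSLR (0.937) and PRR34-AS1 (0.937), each lower with JQ1 than with vehicle in every library of both lines. That arrangement was found for 24.2% of the 5035 loci past the filter in both lines. EMSLR was at 4.62 and 4.99 FPKM with JQ1 and at 7.90 and 7.12 FPKM with vehicle in LM3, and at 3.21 and 3.35 FPKM with JQ1 and 7.02 and 6.23 FPKM with vehicle in HepG2. Between the 3 lncRNAs r was 0.967 for H19 with KCNQ1OT1, -0.31 for H19 with MEG8 and -0.37 for KCNQ1OT1 with MEG8.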

How the data were processed

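Total RNA depleted of ribosomal RNA was sequenced in pairs of reads, per the labels' protocols. The deposited values are FPKM, per the file headers, with 2 decimals, in 1 table per line. The submitters' processing notes list hg19, mm8 and Bowtie 0.12.2, with no role for any. Coordinates of the 3 lncRNAs equal those of GENCODE release 29 on GRCh38. The sources used here give neither the counting tool nor its strand setting, so reads of antisense partners such as KCNQ1OT1 and KCNQ1 may not be separated. A dash replaced the values of 7692 of 23161 loci, which were left out. Groups follow the sample titles. Two-sided tests of JQ1 against vehicle used limma 3.58.1 in R 4.3.3, fitted with a robust trend, on log2(FPKM + 0.5) of loci whose mean in the line reached 0.5 FPKM, and the difference and mean of the lines' responses for loci past the filter in both. With 2 libraries against 2, an exact permutation test cannot go below p = 0.333. The lncRNAs and lists were chosen with earlier results of these data known. All list members that passed the filter, called neighbours (at most 4 per cluster) and the 3 loci most like each lncRNA are named. MEG3, MRPL23-AS1, LINC01219 and LINC02228 were named after their values were seen. Alternatives were other pseudocounts (0.1 and 1), filters, scalings, moderation, a replicate block, no overlapping loci and each library left out. The number of fragments per library is unknown. Tables and plots used pandas 2.3.3 and matplotlib 3.10.9 under Python 3.11.15 with NumPy 2.4.6.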

Additional observations from a re-analysis of the deposited data

Results flagged for a closer look

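KCNQ1OT1 is given again because its JQ1 libraries lay on opposite sides of vehicle in the lines, though neither line passed the test. In LM3 the log2 fold change was -0.080 (limma adjusted p = 0.618), and it was 0.0029 with each library centred on its median. In HepG2 it was 0.20 (limma adjusted p = 0.153). Both LM3 JQ1 libraries (0.78 and 0.69 FPKM) were below both LM3 vehicle libraries (0.80 and 0.81 FPKM), and both HepG2 JQ1 libraries (1.56 and 1.60 FPKM) were above both HepG2 vehicle libraries (1.32 and 1.29 FPKM). The LM3 response minus the HepG2 response was -0.29 on the log2 scale (limma unadjusted p = 0.0387, adjusted p = 0.388), and did not pass. Of 5035 loci tested, 3.61% showed such opposite directions, and 2.56% in this arrangement of the lines.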

How the results depend on the processing

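MEG8 stayed negative in each line, between -0.74 and -0.31 in LM3 and between -0.91 and -0.36 in HepG2, and KCNQ1OT1 stayed positive in HepG2, between 0.16 and 0.26, under all settings that gave a value. None of the 3 was called in a single line under any setting, and a filter at 1 FPKM left no value for MEG8, nor for KCNQ1OT1 in LM3. The same loci were tested when a library was left out. The sign changed for KCNQ1OT1 in LM3 with libraries centred on their median (0.0029). For H19 it changed after quantile normalization in LM3 (-0.24) and in the mean of the lines (-0.082), and with centred libraries in the difference between lines (0.054). Leaving out single libraries moved H19 between -0.083 and 0.085 in LM3, between -0.054 and 0.088 in HepG2, between -0.033 and 0.051 in the mean and between -0.10 and 0.068 in the difference. It moved MEG8 between -0.62 and -0.42 in the mean and between -0.12 and 0.27 in the difference, and PEG13 in HepG2 between -0.070 and 0.16. The cause was not tested. Loci called numbered 857 in LM3, 852 in HepG2, 3339 in the mean and 94 in the difference with no filter on low values. With a filter at 1 FPKM they were 975 in HepG2, 1307 in the mean and 7 in the difference. The difference had 7 calls with a pseudocount of 0.1, 19 with 1, 20 with centred libraries, 5 after quantile normalization and 0 without overlapping loci (limma, 390 at an unadjusted p under 0.05), against 11 as reported. Leaving out 1 library, with a lone sample assumed to vary like the other groups, gave 0 calls in LM3 (limma, 1605 to 2366 at an unadjusted p under 0.05), 0 to 519 in HepG2 (0 without either JQ1 library, where limma gave 1789 and 1714 at an unadjusted p under 0.05), 0 to 3 in the difference (427 to 696 at an unadjusted p under 0.05) and 1748 to 2058 in the mean. Of the other imprinted lncRNAs, 0 were then called in either line, and 1 was called in HepG2 with centred libraries and 1 after quantile normalization. A replicate block gave 1215 calls in LM3, 1453 in HepG2, 1910 in the mean and 0 in the difference (limma, 505 at an unadjusted p under 0.05), with MEG8 still called in the mean (adjusted p = 0.0405); same-numbered libraries share only a number, with a correlation of deviations across loci of 0.13 in LM3 and -0.035 in HepG2. Depth is unknown, and 2 libraries per group limit the precision.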
